A study of Homo sapiens with 27 samples.

Results

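The genes described here are 9 markers of neuroendocrine differentiation, CHGA, CHGB, SCG2, SYP, NCAM1, UCHL1, INSM1, SOX2 and REST, followed through 3 lines of human prostate cancer cells after CRISPR guide RNAs against RIPK2. They were chosen by symbol, with earlier results of these data known. They are 9 of the 27546 gene symbols listed in at least 1 of the 3 count tables. All 9 were listed for 22Rv1, 7 for DU145 and 7 for PC3, where a table lists a symbol only if at least 1 count fell on it in the 9 libraries of the line. CHGA and INSM1 were not listed for DU145, and CHGA and CHGB were not listed for PC3.

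The lines were 22Rv1, grown from a human prostate tumour xenograft, and DU145 and PC3, established from metastases. In each line 3 libraries came from cells labelled WT that carried control gRNA number 1, 3 came from cells labelled RIPK2 knockout with a first guide (RIPK2 gRNA 1 in 22Rv1, RIPK2 gRNA 2 in DU145 and PC3), and 3 came from RIPK2 knockout cells with RIPK2 gRNA 10, which makes 27 libraries. All groups, controls included, carry a guide RNA. The labels do not say whether a knockout is 1 clone or a pool of edited cells, so guide and clone cannot be told apart, and they do not say whether replicates are separate cultures, so the p-values measure the spread between these libraries only. RIPK2 is a kinase that relays signals from the intracellular sensors NOD1 and NOD2.

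Neuroendocrine cells store peptides and amines in dense core granules and release them on stimulation. The granins CHGA, CHGB and SCG2 are granule cargo, SYP is a membrane protein of synaptic vesicles, and NCAM1 is a cell adhesion molecule of neurons and neuroendocrine cells. INSM1 and SOX2 are transcription factors that act in neuroendocrine and progenitor cells, and REST is a zinc finger repressor that silences neuronal genes in other cells through corepressors such as RCOR1. Prostate adenocarcinoma can acquire neuroendocrine features, and pathologists stain for CHGA, SYP, NCAM1 and INSM1 to recognise them.

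The promoters of CHGA, SOX2 and SYP are shown because, among the markers with a RefSeq window, CHGA and SOX2 had the widest ratios to control and SYP was called lower most often, and because a cyclic AMP response element in the CHGA promoter is a well known control site of that gene. Each is the run of 250 bases before the start of the transcript in RefSeq (GRCh38.p14), printed 5′ to 3′ on the strand of the gene. Capitals mark TGACGTCA, the cyclic AMP response element, and its part TGACG in either orientation.
CHGA: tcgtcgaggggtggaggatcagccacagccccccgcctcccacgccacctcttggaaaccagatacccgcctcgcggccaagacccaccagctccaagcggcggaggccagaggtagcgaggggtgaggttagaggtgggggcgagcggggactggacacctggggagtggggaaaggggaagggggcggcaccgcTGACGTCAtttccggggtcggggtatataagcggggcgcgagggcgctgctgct
SOX2: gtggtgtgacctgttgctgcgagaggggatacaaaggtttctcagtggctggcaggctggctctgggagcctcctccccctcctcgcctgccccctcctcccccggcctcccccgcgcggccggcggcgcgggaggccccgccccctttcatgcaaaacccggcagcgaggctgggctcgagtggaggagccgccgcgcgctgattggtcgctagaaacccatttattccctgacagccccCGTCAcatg
SYP: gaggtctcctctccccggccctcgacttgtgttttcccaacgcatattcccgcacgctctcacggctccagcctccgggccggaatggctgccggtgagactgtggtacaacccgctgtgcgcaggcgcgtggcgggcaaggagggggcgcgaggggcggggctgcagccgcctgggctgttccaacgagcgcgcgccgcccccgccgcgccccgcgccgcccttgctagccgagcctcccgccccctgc
The CHGA run is chr14:92922900-92923149 on the plus strand, the SOX2 run is chr3:181711675-181711924 on the plus strand, and the SYP run is chrX:49200194-49200443 on the minus strand. TGACGTCA was searched on both strands in windows of 300 bases that also take in 50 bases after the start. It occurred 1 time in the CHGA window, with its first base 54 bases before the start, and 1.85% of the 35116 RefSeq promoter windows held it. The shorter TGACG, which is contained in TGACGTCA, was found in the SOX2 window on the minus strand, 9 bases before the start, and in 24.6% of all windows. The windows of SYP, UCHL1 and REST held neither. CAGCACC and GGACAGC, parts of the site read by REST, were not found in the windows of CHGA, SOX2, SYP and UCHL1, and 7.75% and 6.03% of all windows held them. GGACAGC occurred 1 time in the second REST window, 170 bases before that start. These matches describe the letters of the windows and were not related to the counts by any test.

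Library totals ran from 17958558 to 20650819 counts, so that a count of 0 allows up to 3 counts, or 0.140 to 0.171 CPM (the count as a share of its library, after scaling with the TMM factors of all 27 libraries). RIPK2 itself stood at 51.5% of the control with gRNA 1 and 32.8% with gRNA 10 in 22Rv1, at 27.7% with gRNA 2 in DU145 and at 33.9% and 44.6% with gRNA 2 and gRNA 10 in PC3, all called lower. With gRNA 10 in DU145 it stood at 82.6%, and the difference did not pass (edgeR quasi-likelihood test, adjusted p = 0.0614). The log2 change was -0.29 (SE 0.11), and each of these libraries was below every control by CPM. The difference stayed above the threshold in 10 of 15 alternatives and passed in the others. A count of the transcript does not show whether the gene was cut. Of the libraries, 22Rv1 gRNA 1 replicate 3 stood apart, with 16.7% of its counts on mitochondrial genes against 2.10% and 1.92% in the other replicates of the group. DU145 gRNA 2 replicate 3 had 2.89% against 1.75% and 2.12%, and changes of a marker with these guides are also given without the library. The epithelial keratin KRT8 was present in every group, at means of 121 to 996 CPM. Of 13 markers of blood, vessel and connective tissue cells, 5 to 9 had no more than 3 counts in any library of a group, CD3E among them in all groups and PTPRC in all but PC3 gRNA 2. Others were higher. COL1A1, a collagen gene, was above this in every group, at means of 8.53 to 57.4 CPM. In PC3, PECAM1 was at means of 2.03 CPM in the control, 9.77 with gRNA 2 and 7.46 with gRNA 10.

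At baseline the lines carried different markers. In control cells of 22Rv1, SYP reached 89.7 ± 4.65 CPM (SD, n = 3), REST 98.03 ± 12.5, CHGB 8.57 ± 0.43 and SCG2 5.04 ± 0.86, whereas CHGA had 2, 1 and 3 counts and INSM1 had none. Per kilobase of exon, the level was 26.5 CPM for SYP, 12.9 for REST, 3.36 for CHGB, 1.96 for SCG2 and 0.42 for SOX2 in these control cells. In control cells of DU145 the marker that stood out was UCHL1, a ubiquitin hydrolase abundant in neurons, with 25568, 23961 and 26099 counts (1180 ± 61.2 CPM), against 0, 1 and 2 counts in 22Rv1 and 0 in each PC3 control. SYP was at 6.94 ± 0.64 CPM in DU145 and 4.97 ± 0.60 CPM in PC3, and REST was at 53.2 ± 0.61 and 75.6 ± 5.0 CPM. The count tables of the lines were deposited separately, and line and anything handled with it cannot be told apart.

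The 6 markers tested in a joint model of all libraries were SCG2, SYP, NCAM1, UCHL1, SOX2 and REST. Control DU145 differed from control 22Rv1 in 5 of the 6 (75.9% of the 16322 genes tested differed, 37.9% higher and 38% lower): UCHL1 was higher, by a ratio of summed counts per library size of 22900 (95% exact interval 7820 to 111000, counting error only), and SCG2, SYP, SOX2 and REST were lower, SYP by 3.70 (SE 0.13) on the log2 scale. Control PC3 differed from control 22Rv1 in 4 of the 6 (background 80.5%, 39.4% higher and 41.1% lower), all lower: SCG2, SYP, SOX2 and REST. Between control PC3 and control DU145, 3 of the 6 differed (background 75.9%, 37.1% higher and 38.8% lower). REST was 1.42-fold higher in PC3, UCHL1 was at least 22100-fold lower, and SYP was lower by 0.48 (SE 0.14, adjusted p = 0.00409). UCHL1 passed the filter on low counts in this model only through DU145 libraries, and SCG2 only through 22Rv1 libraries. NCAM1 passed it only through DU145 gRNA 10 libraries, and SOX2 only through 22Rv1 and DU145 gRNA 10 libraries. Calls of these markers can therefore not be weighed against the backgrounds. With the background this high, the counts are read as no result about the markers as a group. The order of REST was 22Rv1, PC3, DU145, with each neighbouring pair of controls separated, and the order of SYP was 22Rv1, DU145, PC3.

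**Figure D1:**
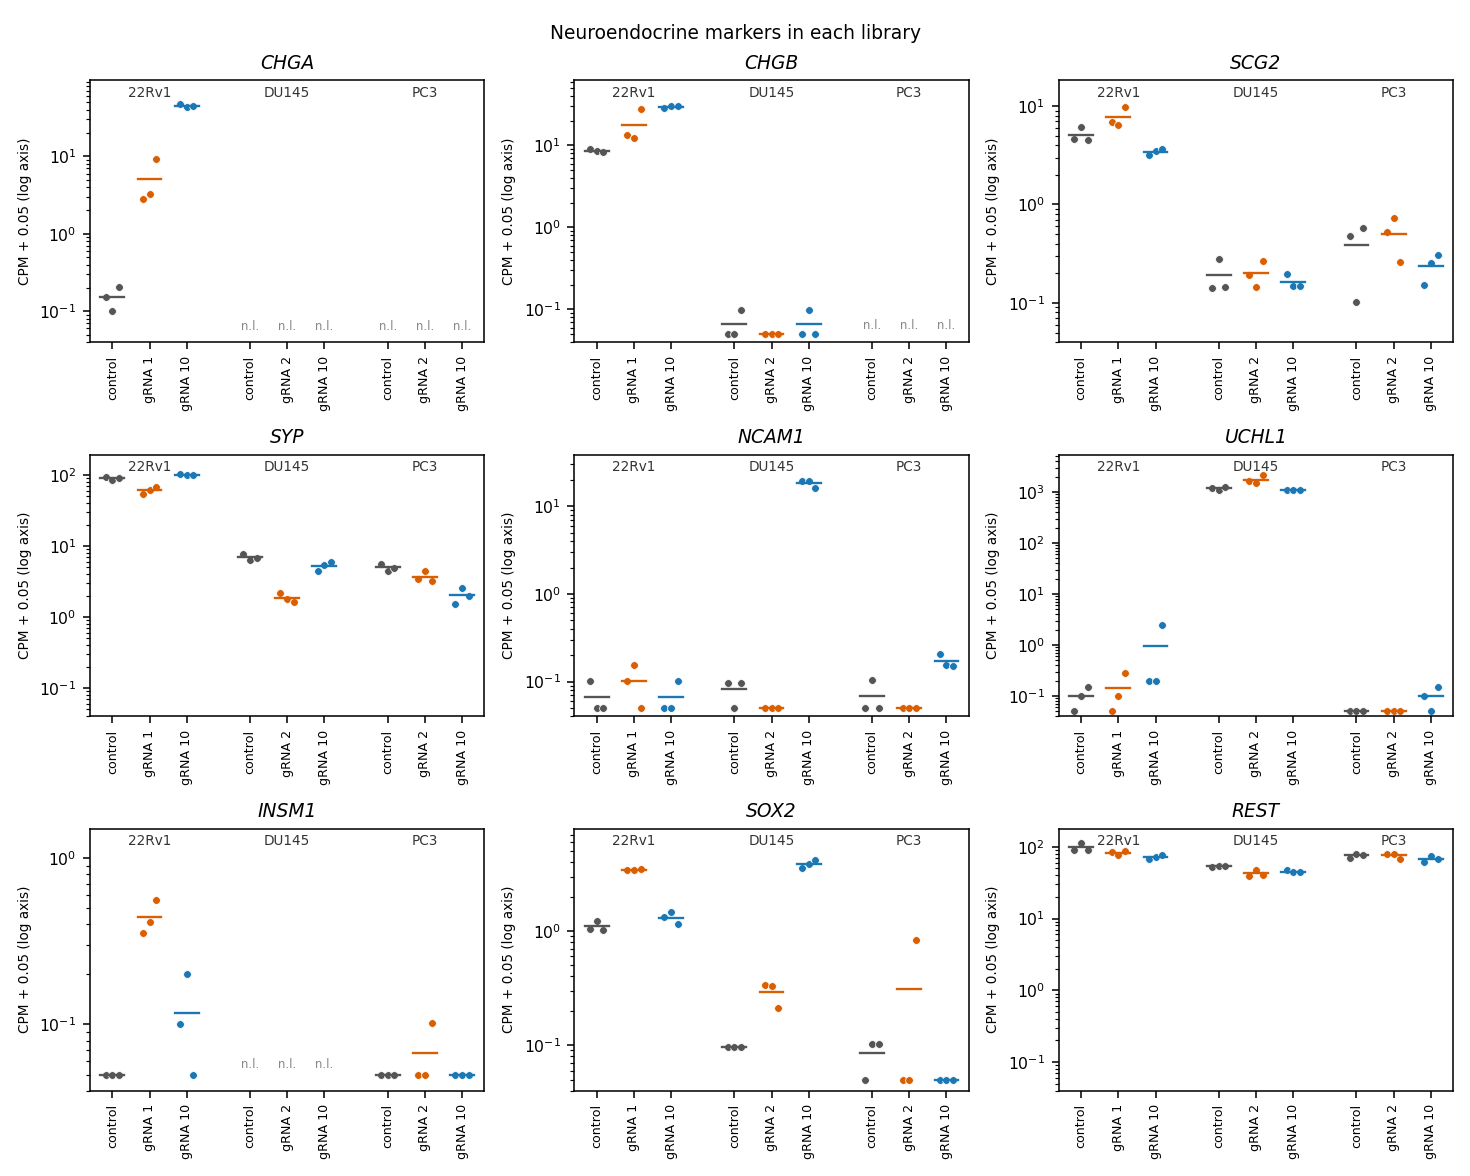
Level of each of the 9 markers in each of the 27 libraries, as CPM plus 0.05 on a log axis; points are libraries, bars are group means, grey is control, orange the first RIPK2 guide, blue gRNA 10, and n.l. means that the symbol was not listed for the line. CHGA rises in both 22Rv1 knockouts, NCAM1 and SOX2 are high with gRNA 10 in DU145, and UCHL1 is high in all DU145 groups.

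With RIPK2 gRNA 1 in 22Rv1, 6 of the 9 markers were tested and 5 were called at an adjusted p below 0.05: CHGA, CHGB, SCG2 and SOX2 rose and SYP fell. Of all 15198 genes tested there, 48.5% were called, 25.6% higher and 22.9% lower. With gRNA 10, 4 of the 6 were called, CHGA and CHGB upward and SCG2 and REST downward, against a background of 40.6%, 20% higher and 20.6% lower. CHGA, with 2, 1 and 3 counts in the control, passed the filter on low counts only through the knockout libraries. Its calls can therefore not be weighed against these shares. Both contrasts use the same 3 control libraries. In bulk RNA, a change in the share of cells that express a gene and a change in the amount per cell cannot be told apart.

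CHGA, which encodes the granule protein chromogranin A (chr14:92923080-92935293, plus strand, GENCODE 29), had the largest change of the markers tested in 22Rv1. It had 2, 1 and 3 counts in the control, 54, 63 and 160 with gRNA 1, and 929, 855 and 871 with gRNA 10. The 3 groups did not overlap, and the lowest gRNA 10 library was above the highest gRNA 1 library. The ratio of summed counts to the control was 47.3 with gRNA 1 (95% exact interval 21.4 to 130.0; adjusted p = 7.34e-05) and 433 with gRNA 10 (199 to 1180; adjusted p = 9.74e-07). Without the gRNA 1 library with many mitochondrial counts, the first ratio was 28.9. At 21.7 CPM per kilobase, CHGA with gRNA 10 had a level per length close to that of SYP in control cells. Only 11 of the 15198 genes had a fitted change as large in size with gRNA 10, CHGA included, and 70 with gRNA 1, although fitted values for a gene so near 0 in the control depend on the prior count.

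CHGB, a second granin (chr20:5911430-5925361, plus strand), was already expressed and rose less. Its counts were 174, 165 and 159 in the control, 264, 237 and 483 with gRNA 1, and 557, 596 and 597 with gRNA 10. The gRNA 1 libraries lay between the other groups without overlap, and the highest of them was again the library with many mitochondrial counts. The log2 change was 1.06 (SE 0.26, adjusted p = 0.00666) with gRNA 1, 0.59 without that library (adjusted p = 0.000324), and 1.76 (SE 0.26, adjusted p = 0.000315) with gRNA 10. The part of the mitochondrial share in the level of CHGA and CHGB in that library was not tested. The summed level of the 13 markers of other cell types also differed between these groups, at 10.2 to 12.0 CPM in the control, 14.7 to 32.3 with gRNA 1 and 26.9 to 29 with gRNA 10, with 8 of the 13, PTPRC, CD3E, PECAM1 and CDH5 among them, at no more than 3 counts in each library of every group. COL1A1, another of the 13, was at means of 8.53, 16.65 and 22.2 CPM in these groups. The summed level of 14 epithelial markers was 2723 to 2795, 2158 to 2227 and 2821 to 2859 CPM. Their part in the changes of the granins was not tested.

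SCG2 (chr2:223596940-223602503, minus strand), a granin that is the precursor of secretoneurin, did not follow the other granins. It had 88, 117 and 88 counts in the control, 136, 125 and 170 with gRNA 1, and 62, 69 and 71 with gRNA 10. It was above the control with one guide and below it with the other, with no overlap of groups. The log2 change was 0.62 (SE 0.19, adjusted p = 0.0201; 0.41 without the library with many mitochondrial counts) with gRNA 1 and -0.59 (SE 0.20, adjusted p = 0.0341) with gRNA 10. The first call was lost without control replicate 1 or 3 (adjusted p = 0.0754 and 0.0720) and the second without control replicate 2 or any 1 gRNA 10 library (adjusted p = 0.0709 to 0.125). In DU145 and PC3, SCG2 had at most 13 counts in a library and was not tested within the line.

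SYP (chrX:49187804-49200259, minus strand) was measured in all lines and was called lower in 4 of the 6 guide contrasts and higher in none. In 22Rv1 it had 1810, 1644 and 1760 counts in the control, 1078, 1195 and 1192 with gRNA 1 and 2079, 1990 and 1976 with gRNA 10. All gRNA 1 libraries were below and all gRNA 10 libraries above the controls. The log2 change was -0.53 (SE 0.10, adjusted p = 0.00113; -0.62 without the library with many mitochondrial counts) with gRNA 1 and 0.16 (SE 0.10, adjusted p = 0.21) with gRNA 10. In the gRNA 1 cells of this line, SYP fell while CHGA and CHGB rose.

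In DU145, SYP had 164, 137 and 144 counts in the control, 44, 37 and 30 with gRNA 2 and 90, 111 and 122 with gRNA 10. Neither knockout overlapped the control. It fell by 1.92 on the log2 scale with gRNA 2 (SE 0.18, adjusted p = 4.81e-05; log2 change -1.84 without replicate 3), and the difference of -0.41 with gRNA 10 did not pass (SE 0.16, adjusted p = 0.0678), though it did without gRNA 2 replicate 3 (adjusted p = 0.0152) or with the gRNA 2 libraries left out of the fit (adjusted p = 0.00776). In PC3 the counts were 105, 84 and 90 in the control, 65, 83 and 60 with gRNA 2 and 29, 49 and 38 with gRNA 10. The highest gRNA 2 library came within 1 count of the lowest control, and all gRNA 10 libraries were below every other library. SYP fell by 0.44 with gRNA 2 (SE 0.15, adjusted p = 0.0137), a call that was lost without control replicate 1 or without gRNA 2 replicate 1 or 3 (adjusted p = 0.0529 to 0.0835), and by 1.31 with gRNA 10 (SE 0.17, adjusted p = 6.86e-08). It was the only one of the 2 markers tested in PC3, SYP and REST, that was called with either guide, against 63.6% of the 14718 genes for gRNA 2 (32.1% up, 31.5% down) and 73.5% for gRNA 10 (37.9% up, 35.6% down). In PC3 the 14 epithelial markers summed to 2607 to 2694 CPM in the control, 2296 to 2369 with gRNA 2 and 3294 to 3480 with gRNA 10, and the 13 markers of other cell types to 71.2 to 73.1, 68.9 to 79.9 and 82.6 to 87.2 CPM. Among the 13, COL1A1 was at means of 29.5, 52.3 and 57.4 CPM in these groups. The part of these markers in the fall of SYP was not tested.

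DU145 gave calls for 4 of 5 tested markers with gRNA 2, SOX2 and UCHL1 upward and SYP and REST downward (background 34% of 14908 genes, 17.1% higher and 17% lower; 21.5% and 22% without control replicate 1 and 3), and for 3 of 5 with gRNA 10, NCAM1 and SOX2 upward and REST downward (background 40%, 20.2% higher and 19.8% lower). NCAM1 and SOX2 passed the filter on low counts in DU145 only through the gRNA 10 libraries, so their calls cannot be weighed against these backgrounds. With at least 10 counts required in every library, 0 markers were called with gRNA 10. NCAM1, the adhesion molecule (chr11:112961247-113278436, plus strand), had 1, 0 and 1 counts in the control, 0 in each gRNA 2 library, and 390, 392 and 332 with gRNA 10. Only the gRNA 10 libraries rose above the floor, and in 22Rv1 and PC3 no library had more than 3 counts. The ratio to the control was 583 (95% exact interval 161 to 4820; adjusted p = 7.35e-07; 388 without control replicate 2, which had 0 counts), and gRNA 10 was at least 369-fold above gRNA 2. With gRNA 10 in DU145, 6 of the 14908 genes had a fitted change of that size or more, NCAM1 included. CHGB had 1 count over the 3 gRNA 10 libraries, and CHGA and INSM1 were not listed. In DU145 the 13 markers of other cell types summed to 14.6 to 16.4 CPM in the control, 5.88 to 13.3 with gRNA 2 and 26.2 to 32.6 with gRNA 10, and the 14 epithelial markers to 848 to 895, 1507 to 2833 and 1475 to 1599 CPM. PTPRC, CD3E and DCN had no more than 3 counts in each DU145 library, whereas COL1A1 was at means of 13.2, 8.66 and 25.8 CPM in these groups. The part of these shifts in the marker changes was not tested.

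UCHL1 (chr4:41256413-41268455, plus strand) stayed at its high DU145 level. Its counts were 25568, 23961 and 26099 in the control, 33802, 31507 and 39817 with gRNA 2 and 22243, 22063 and 22378 with gRNA 10. It was 1.48-fold higher with gRNA 2 (log2 change 0.57, SE 0.13, adjusted p = 0.00677; 0.40 without replicate 3, adjusted p = 0.000191). With gRNA 10 the libraries lay below every control, and the difference of -0.13 did not pass (adjusted p = 0.451; 0.0165 when only the libraries compared were fitted). In 22Rv1, UCHL1 had 3, 3 and 48 counts with gRNA 10, so a single library held nearly all of them. The ratio to the control was 17.6 (95% exact interval 5.71 to 88.1) with that library and 2.94 without it, and 35.2 and 11.8 without control replicates 3 and 1, and the gene was not tested in that line.

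INSM1 (chr20:20368121-20370949, plus strand), a transcription factor that acts in neuroendocrine cells, was close to the floor throughout. In 22Rv1 it had 0 counts in each control, 6, 7 and 9 with gRNA 1, and 1, 3 and 0 with gRNA 10. With gRNA 1 its level was at least 7.51-fold higher than a floor of 3 counts over the control group. It was not tested because it failed the filter on low counts.

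SOX2 (chr3:181711924-181714436, plus strand) was called higher in 3 of the 4 contrasts in which it was tested. In DU145 it passed the filter on low counts only through the gRNA 10 libraries, so this tally of SOX2 is not read as a pattern over contrasts. In 22Rv1 it had 19, 23 and 19 counts in the control, 66, 65 and 60 with gRNA 1 and 25, 28 and 22 with gRNA 10. Every gRNA 1 library was above every other library, and gRNA 10 overlapped the control. The log2 change was 1.69 (SE 0.20, adjusted p = 5.65e-05; 1.67 without the library with many mitochondrial counts) with gRNA 1 and 0.24 (SE 0.21, adjusted p = 0.440) with gRNA 10. In DU145 the order of guides was the other way round, with 1 count in each control, 6, 6 and 3 counts with gRNA 2 and 71, 78 and 85 with gRNA 10. No groups overlapped. The ratio to the control was 5.27 with gRNA 2 (95% exact interval 1.49 to 28.4; adjusted p = 0.0111; 6.09 without replicate 3) and 81.7 with gRNA 10 (27.6 to 399; adjusted p = 7.68e-07).

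In PC3, SOX2 had 0, 1 and 1 counts in the control, 0, 0 and 15 with gRNA 2 and 0 with gRNA 10. The 15 counts came from gRNA 2 replicate 3 alone, and the gene was not tested there. SOX2 lies within the longer RNA gene SOX2-OT on the same strand, which had at most 27 counts in any library. SOX2-OT summed to 73, 56 and 21 counts in the 22Rv1 control, gRNA 1 and gRNA 10 groups, and to 2, 10 and 13 in the DU145 groups, so in 22Rv1 it did not show the rise of SOX2 with gRNA 1.

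REST (chr4:56907876-56966678, plus strand), the repressor, was called lower in 3 of the 6 contrasts and higher in none. In 22Rv1 it had 1746, 2183 and 1772 counts in the control, 1651, 1510 and 1511 with gRNA 1 and 1347, 1437 and 1514 with gRNA 10. Both knockouts lay below the lowest control. It fell by 0.46 on the log2 scale with gRNA 10 (SE 0.11, adjusted p = 0.00566), and the difference with gRNA 1 was -0.24 (SE 0.11, adjusted p = 0.0898; 0.0288 without the library with many mitochondrial counts). The difference in REST between the guides did not pass (0.23, SE 0.11, adjusted p = 0.125).

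In DU145, REST had 1128, 1146 and 1134 counts in the control, 817, 1016 and 752 with gRNA 2 and 957, 893 and 902 with gRNA 10. All knockout libraries were below all controls. The log2 changes were -0.32 (SE 0.09, adjusted p = 0.0219; -0.28 without gRNA 2 replicate 3) and -0.25 (SE 0.09, adjusted p = 0.0485), and both were near the threshold. The first was lost in 5 of 15 alternatives, without any 1 control, without gRNA 2 replicate 1 and with only the compared libraries (adjusted p = 0.0583 to 0.0734). The second was lost in 10 of 15, without any 1 control or gRNA 10 library, with RLE factors, with either other filter and with the replicate block (adjusted p = 0.0508 to 0.146). In PC3 the counts were 1305, 1498 and 1443 in the control, 1502, 1528 and 1305 with gRNA 2 and 1185, 1438 and 1320 with gRNA 10, and the groups overlapped. The differences of 0.02 (adjusted p = 0.862) and -0.15 (adjusted p = 0.0834) did not pass. The second passed in 7 of 15 alternatives, among them the fit with the replicate number as a block (adjusted p = 0.00831) and those without control replicate 1, gRNA 2 replicate 3 or gRNA 10 replicate 2 (adjusted p = 0.0204, 0.0258 and 0.00671). NOA1, which overlaps REST on the opposite strand, had 510 to 1129 counts in a library, and the strand setting of the counting is not given in the sources used here. Reads from REST and NOA1 can therefore not be told apart with certainty. The antisense partners SYP-AS1, NCAM1-AS1 and UCHL1-AS1 had at most 4, 2 and 13 counts in a library where they were listed.

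**Figure D2:**
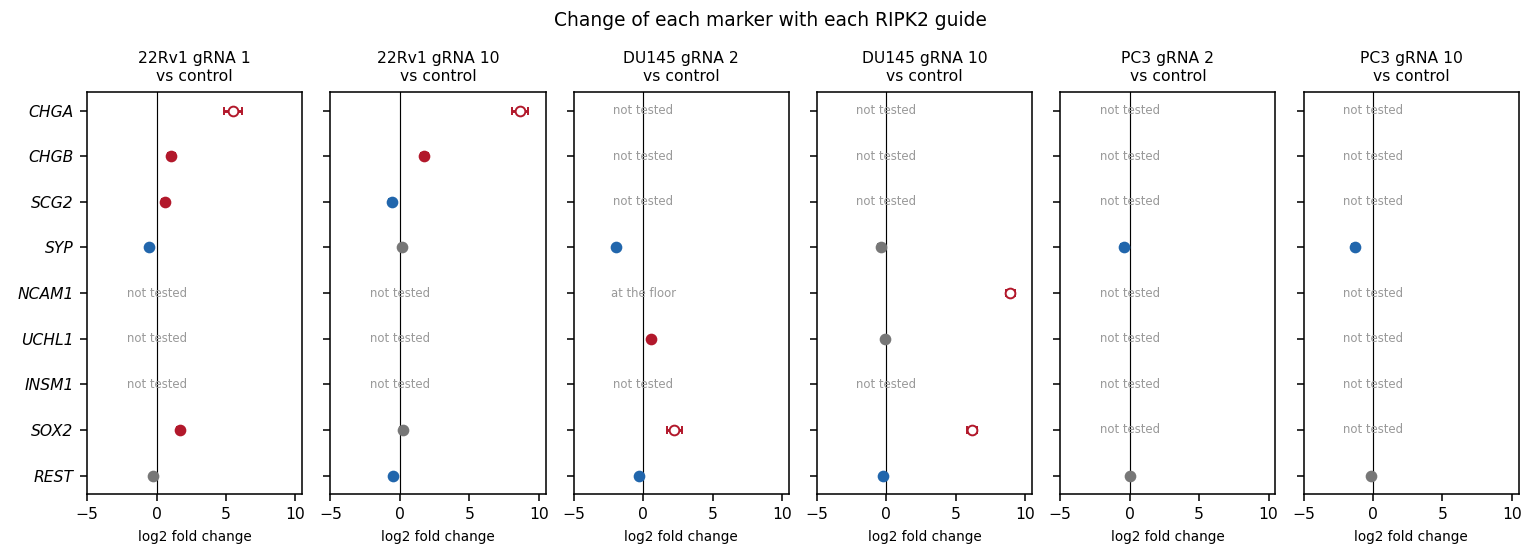
Log2 fold change of each marker with each RIPK2 guide against the control of the line; points are estimates, bars are SE, red is called higher, blue called lower and grey not called, and hollow points have a control near 0 counts, so that their size depends on the prior count; at the floor means no more than 3 counts in any library of both groups. SYP and REST carry no red point, and the largest changes are CHGA in 22Rv1 and NCAM1 and SOX2 with gRNA 10 in DU145.

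Tested against each other, the guides of a line differed in 5 of 6 markers in 22Rv1 (background 35.6%, 18.8% higher with gRNA 1 and 16.8% lower). They differed in 4 of 5 in DU145 (background 38.8%, 19.2% higher with gRNA 2 and 19.6% lower) and in 1 of 2 in PC3 (background 73.4%, 36.5% and 36.9%). The 4 include NCAM1 and SOX2, which passed the filter on low counts in DU145 only through the gRNA 10 libraries. In 22Rv1 gRNA 1 had less CHGA than gRNA 10 (log2 difference -3.13, SE 0.35, adjusted p = 6.34e-05; -3.88 without the library with many mitochondrial counts), less SYP and CHGB, and more SCG2 and SOX2. Without that library the differences in SYP, SCG2 and SOX2 were -0.79, 0.99 and 1.43, against -0.69, 1.21 and 1.45 with it. The difference in CHGB, -0.70 (adjusted p = 0.0466), was lost without any 1 library of the line other than that one (adjusted p = 0.0645 to 0.127). In DU145 gRNA 2 had more UCHL1 and less SYP, SOX2 and NCAM1 than gRNA 10. The differences in UCHL1, SYP and SOX2 were 0.70, -1.51 and -3.91, and 0.53, -1.43 and -3.69 without gRNA 2 replicate 3, and that in NCAM1 kept its call. In PC3 SYP was higher with gRNA 2 by 0.87 (SE 0.18, adjusted p = 0.000101).

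The mean change over both guides was compared between lines in the joint model. For SYP it was -0.18 (SE 0.09) in 22Rv1, -1.16 (SE 0.13) in DU145 and -0.89 (SE 0.14) in PC3. It was lower in DU145 than in 22Rv1 by -0.97 (SE 0.16, adjusted p = 1.88e-05) and lower in PC3 than in 22Rv1 by -0.70 (SE 0.17, adjusted p = 0.00133), while PC3 and DU145 differed by 0.27 (SE 0.19, adjusted p = 0.269). Without 22Rv1 gRNA 1 replicate 3 or without DU145 gRNA 2 replicate 3, the first difference was -0.94 and -0.93 and the second -0.67 and -0.69. SOX2 rose more in DU145 than in 22Rv1, by 3.24 (SE 0.90, adjusted p = 0.00456; 3.24 and 3.35 without these libraries), a fitted value that depends on the prior count because each DU145 control had 1 count. Of the 6 markers in this model, 2 differed between DU145 and 22Rv1 (background 47.1%, 23.6% higher and 23.5% lower), 1 between PC3 and 22Rv1 (45.3%, 22% and 23.3%) and 0 between PC3 and DU145 (42.2%, 20.9% and 21.3%; none at an unadjusted p below 0.05 either, and 1, SOX2, by DESeq2). SOX2 passed the filter on low counts in this model only through 22Rv1 and DU145 gRNA 10 libraries, so its call cannot be weighed against these backgrounds. For REST the mean change was -0.35 (SE 0.08) in 22Rv1, -0.28 (SE 0.08) in DU145 and -0.08 (SE 0.08) in PC3, and no difference between lines passed (adjusted p = 0.0676 to 0.703). That between PC3 and 22Rv1, 0.26, was near the threshold and passed in 7 of 33 alternatives: without either of these libraries (adjusted p = 0.0489 and 0.0483), 22Rv1 control replicate 1 or 3, DU145 gRNA 2 replicate 2, PC3 gRNA 2 replicate 3 or PC3 gRNA 10 replicate 1 (adjusted p = 0.0416 to 0.0484).

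Around the markers, 75 genes in 4 lists describe the same biology. The lists were written from general knowledge, but with earlier results of these data known. The median log2 change over all genes was at most 0.02 in each contrast, and counts of calls in a list stand beside the shares of all genes called that are given above. The first list, of 21 granule and secretory genes, had 16 tested in 22Rv1. With gRNA 1, 8 were called higher and 4 lower, with a median log2 change of 0.62 against 0.02 over all genes. With gRNA 10 there were again 8 higher and 4 lower, with a median of 0.49 and a median near 0 over all genes. These are 12 of 16 genes called with each guide, 75% against the backgrounds of 48.5% and 40.6%. Shares above the background were not particular to this list. With gRNA 10, 83.3% of the transcription factors tested in DU145 were called (background 40%). FOXA2 is among them and passed the filter on low counts only through the gRNA 10 libraries, so this share cannot be weighed against that background. The 10 calls became 6 with at least 10 counts required in every library. In 22Rv1, 64.7% of the genes repressed by REST were called with gRNA 10 (background 40.6%). Other shares were below it, as for granule genes in PC3 with gRNA 2 (33.3%, background 63.6%). VGF, a granin-like precursor of secreted peptides, had 1621, 1213 and 1792 counts in the control, 7876, 8038 and 16969 with gRNA 1 and 9342, 8719 and 8589 with gRNA 10. It rose by 2.91 (SE 0.31, adjusted p = 3.41e-05; 2.36 without the third gRNA 1 library) and 2.47 (SE 0.31, adjusted p = 0.000102). DDC, which makes dopamine and serotonin, ENO2, the neuronal enolase, SCG5, a chaperone of prohormone convertase, and STX1A, a release syntaxin, were called higher with both guides too. SYT4, a synaptotagmin of secretory vesicles, went the other way, from 39065, 46685 and 37676 counts to 3101, 2885 and 2341 with gRNA 1 and 5165, 5340 and 5617 with gRNA 10. It fell, with log2 changes of -3.84 (SE 0.12, adjusted p = 3.63e-09) and -2.99 (SE 0.11, adjusted p = 2.16e-08), and PAM, the peptide amidating enzyme, SNAP25 and SV2A, both of the vesicle release machinery, were also lower with both.

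In DU145, 2 of 12 tested genes were higher and 1 lower with gRNA 2, and 2 were higher and 2 lower with gRNA 10, with medians of -0.01 and -0.18. The 3 calls with gRNA 2 became 1 without control replicate 1 or 2. The 4 calls with gRNA 10 became 7 when only the compared libraries were fitted and 1 without control replicate 1 or 3 or without gRNA 10 replicate 1 or 2, and 2 without control replicate 2 or gRNA 10 replicate 3. SNAP25 rose by 0.88 and 1.28, the first call being lost in 5 of 15 alternatives, and CPE, a carboxypeptidase that trims prohormones, fell by 0.92 and 0.56, the second call being lost without any 1 control or gRNA 10 library. In PC3, 1 of 9 was higher and 2 lower with gRNA 2, and 1 was higher and 5 lower with gRNA 10, with medians of -0.04 and -0.24. VGF, with 201, 203 and 209 counts in the control, had 118, 118 and 98 with gRNA 2 and 52, 33 and 52 with gRNA 10. It fell by 0.89 (SE 0.11, adjusted p = 2.88e-08) and 2.21 (SE 0.13, adjusted p = 1.87e-15), the opposite sign of 22Rv1, with no test of that difference, and SYT1, the calcium sensor of vesicle release, fell with log2 changes of -0.62 and -1.46.

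**Figure D3:**
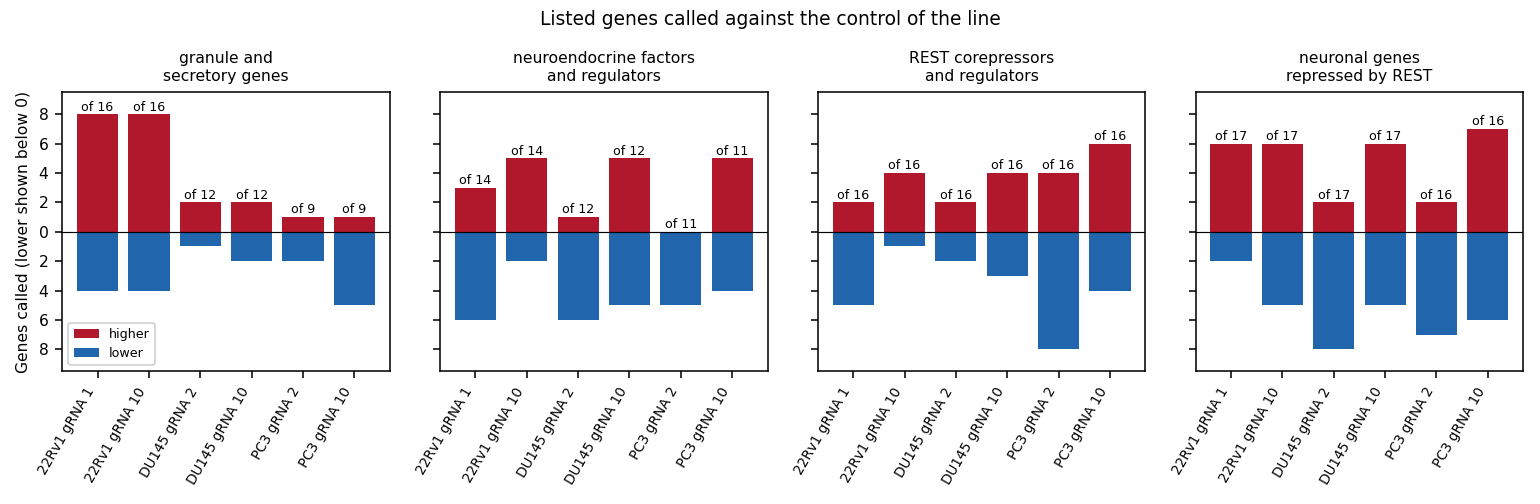
Number of genes of each list called higher (red, above 0) and lower (blue, below 0) with each guide against the control of the line, with the number tested over each bar. Granule and secretory genes have 8 calls upward in both 22Rv1 contrasts and at most 2 in the other lines.

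Among 18 neuroendocrine transcription factors and regulators, the calls went both ways. In 22Rv1, 3 of 14 tested were higher and 6 lower with gRNA 1, and 5 were higher and 2 lower with gRNA 10, with medians of 0.09 and 0.13. POU3F2, also called BRN2 and a driver of neuroendocrine prostate cancer models, had 114, 145 and 119 counts in the control, 256, 217 and 121 with gRNA 1 and 254, 297 and 286 with gRNA 10. By its counts, gRNA 1 replicate 3 was within the control range, and the change was 0.69 with gRNA 1 (SE 0.21, adjusted p = 0.0207; 0.90 without replicate 3; lost in 4 of 15 alternatives) and 1.09 with gRNA 10 (SE 0.21, adjusted p = 0.00186). SOX11, a neuronal progenitor factor, had 354, 325 and 349 counts in the control, 142, 127 and 147 with gRNA 1 and 10, 9 and 5 with gRNA 10. It fell by 1.25 (SE 0.15, adjusted p = 6.67e-05) and 5.45 (SE 0.21, adjusted p = 2.33e-08).

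In DU145, 1 of 12 tested factors was higher and 6 lower with gRNA 2 (median -0.57), and 5 were higher and 5 lower with gRNA 10 (median -0.17). The 7 calls with gRNA 2 became 4 without control replicate 2 or 3 or gRNA 2 replicate 1, and 3 with only the compared libraries. The 10 calls with gRNA 10 became 6 with at least 10 counts required in every library. FOXA2, a forkhead factor found in neuroendocrine prostate tumours, had 1, 0 and 1 counts in the control, 11, 4 and 6 with gRNA 2 and 102, 97 and 103 with gRNA 10. As with SOX2, it passed the filter on low counts only through the gRNA 10 libraries. It followed the order of SOX2, with ratios to the control of 11.1 (95% exact interval 2.71 to 97.4; adjusted p = 0.00507) and 158 (43.4 to 1310; adjusted p = 2.09e-06), which became 7.36 and 105 without control replicate 2, the control with 0 counts. LHX2, a LIM homeobox factor, fell from 474, 465 and 477 counts to 163, 136 and 109 with gRNA 2 and to 267, 333 and 325 with gRNA 10 (log2 changes -1.72 and -0.56, adjusted p = 1.36e-05 and 0.00553). In PC3, 0 of 11 were higher and 5 lower with gRNA 2, and 5 were higher and 4 lower with gRNA 10. MYT1, a zinc finger factor of neurons, went from 147, 172 and 121 counts to 94, 108 and 111 with gRNA 2 and to 7, 2 and 3 with gRNA 10. DLL3, a Notch ligand found on neuroendocrine tumours, fell by 0.36 and 0.49 (adjusted p = 0.0075 and 0.0004).

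**Figure D4:**
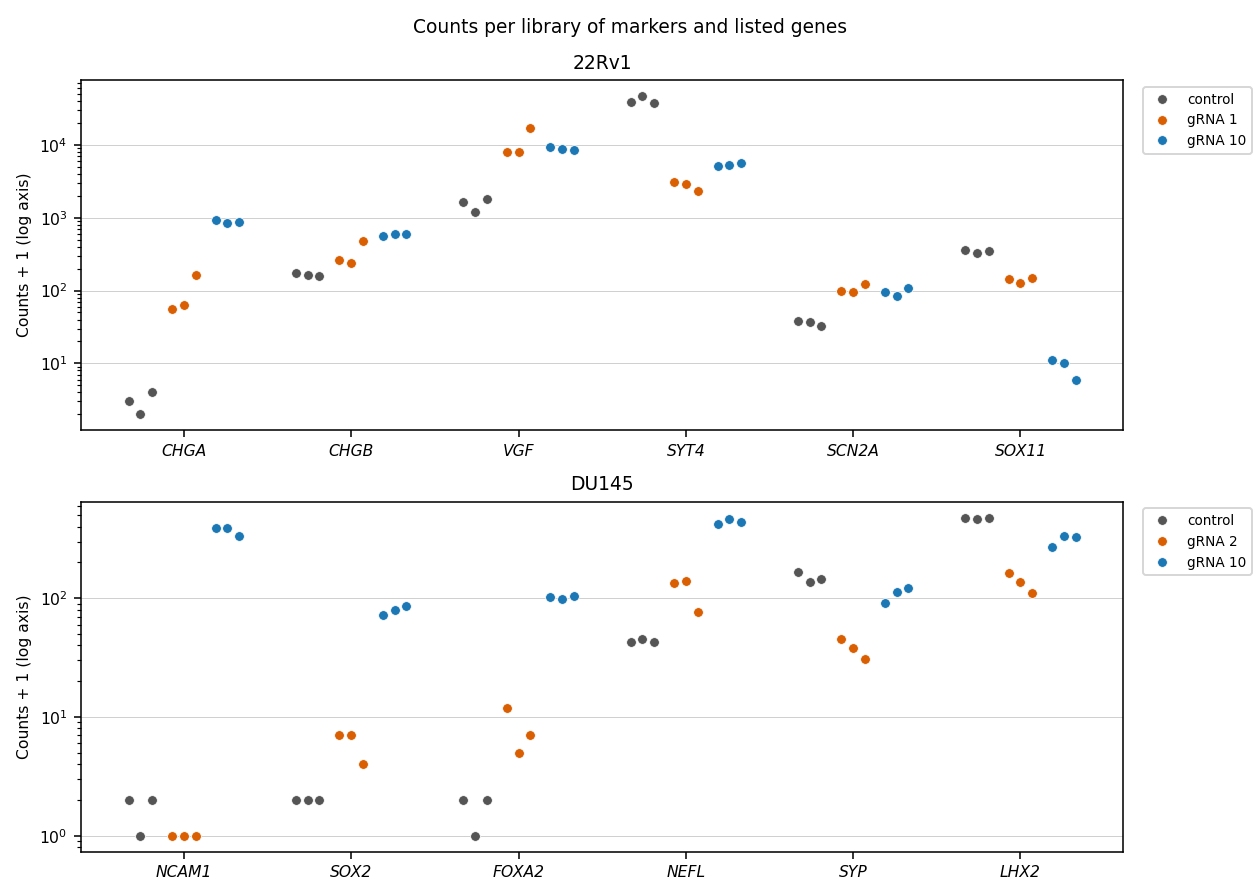
Counts plus 1 in each library, on a log axis, of markers and of listed genes in 22Rv1 (top) and DU145 (bottom); points are libraries, grey is control, orange the first RIPK2 guide and blue gRNA 10. In 22Rv1 CHGA, CHGB, VGF and SCN2A lie above the controls with both guides and SYT4 and SOX11 below them, and in DU145 NCAM1, SOX2, FOXA2 and NEFL are highest with gRNA 10.

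REST acts with the corepressors RCOR1, SIN3A and their histone modifying partners, and 16 genes of this machinery were tested in every line. In 22Rv1, 2 were higher and 5 lower with gRNA 1, and 4 were higher and 1 lower with gRNA 10. With only the compared libraries these 7 and 5 calls became 3 and 8, and the 5 became 10 without gRNA 1 replicate 3. RCOR2, a corepressor paralogue, had 55, 40 and 47 counts in the control, 67, 89 and 142 with gRNA 1 and 149, 147 and 127 with gRNA 10. It rose by 1.14 (SE 0.29, adjusted p = 0.00777; 0.71 without gRNA 1 replicate 3) and 1.52 (SE 0.28, adjusted p = 0.00153), and CTDSP1, a phosphatase that stabilises REST, rose by 0.72 and 0.54. In DU145, 2 were higher and 2 lower with gRNA 2, and 4 were higher and 3 lower with gRNA 10, with HDAC2, a histone deacetylase, up by 0.54 and 0.47. The 4 calls with gRNA 2 became 7 without its replicate 2 or 3, and the 7 with gRNA 10 became 4 without control replicate 1 or 2 or gRNA 10 replicate 3, and 12 with only the compared libraries. In PC3, 4 were higher and 8 lower with gRNA 2, and 6 were higher and 4 lower with gRNA 10. RCOR1 fell from 3190, 3478 and 3516 counts to 2089, 2036 and 2034 and to 1955, 2174 and 1983 (log2 changes -0.74 and -0.78, adjusted p = 2.53e-15 and 2.86e-16), and KDM1A, the histone demethylase bound to it, rose by 0.51 and 0.44.

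The last list held 20 neuronal genes that REST is known to repress. In 22Rv1, 6 of 17 tested were higher and 2 lower with gRNA 1 (median 0.30), and 6 were higher and 5 lower with gRNA 10 (median 0.27). The 11 calls with gRNA 10 became 5 to 7 without control replicate 1 or 3 or without any 1 gRNA 10 library. The sodium channel SCN2A had 37, 36 and 32 counts in the control, 99, 94 and 122 with gRNA 1 and 95, 84 and 109 with gRNA 10, rising by 1.64 (SE 0.20, adjusted p = 7.08e-05) and 1.40 (SE 0.20, adjusted p = 0.000235), while GDAP1, a mitochondrial protein of neurons, fell by 0.65 and 0.41. In DU145, 2 of 17 were higher and 8 lower with gRNA 2 (median -0.51), and 6 were higher and 5 lower with gRNA 10 (median -0.15). The 10 calls with gRNA 2 became 6 without control replicate 1 or with only the compared libraries. NEFL, a neurofilament subunit, rose from 42, 44 and 42 counts to 134, 138 and 76 with gRNA 2 and to 425, 462 and 435 with gRNA 10 (log2 changes 1.51 and 3.42, adjusted p = 0.000281 and 8.39e-07). BDNF, the neurotrophin, fell with log2 changes of -0.69 and -1.46. In PC3, 2 of 16 were higher and 7 lower with gRNA 2, and 7 were higher and 6 lower with gRNA 10, with MAPK8IP1, a JNK scaffold, down by 0.51 and 0.68.

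Likeness of pattern was taken for SYP and REST, the 2 markers tested in every line, as the Pearson correlation over the 9 group means after the mean of each line was subtracted, among 11752 genes. The genes most like SYP were SEC24C (r = 0.98), SLF2 (r = 0.97) and PSD3 (r = 0.97), and those most like REST were CIART (r = 0.95), ZNF358 (r = 0.93) and ZNF181 (r = 0.93). These correlations share the control libraries of each line and are given as a description. The nearest tested genes on either side of CHGA and NCAM1 had smaller changes. GOLGA5 and ITPK1, 83.1 and 1.6 kb from CHGA, changed by -0.15 and 0.18 with gRNA 1 and by -0.57 and 0.31 with gRNA 10 in 22Rv1. PTS and TTC12, 691.3 and 36.1 kb from NCAM1, changed by 0.58 and 0.40 with gRNA 10 in DU145. For the nearest genes of other markers the changes were not always smaller. In 22Rv1, SPINK2 and POLR2B, beside REST, changed by -5.19 and -0.37 with gRNA 1 and by -3.76 and -0.39 with gRNA 10. DNAJC19 and ATP11B, beside SOX2, changed there by -0.21 and -1.24 and by -0.77 and -1.77. In DU145, APBB2 and LIMCH1, 39.7 and 91.2 kb from UCHL1, changed by -0.58 and 1.56 with gRNA 10. The part of position in the marker changes was not tested.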

How the data were processed

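The authors deposited raw read counts per gene symbol, 1 table per line, per the file headers. The submitters' processing notes name FastQC, STAR, edgeR and hg38, with no role or version. Libraries were strand-specific mRNA read in paired ends of 150 bases, per the labels' protocols. Counts of symbols listed more than 1 time (6, 2 and 2 symbols in 22Rv1, DU145 and PC3) were summed.

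The 9 libraries of a line were fitted in edgeR 4.0.16 (R 4.3.3) with TMM factors, filterByExpr (minimum count 10, minimum total 15) and the robust quasi-likelihood test, two-sided. Lines were compared in a model of 27 libraries on 20089 symbols listed in all 3 tables (16322 tested). Calls are Benjamini-Hochberg adjusted p below 0.05 over all genes tested, and the SE is the log2 change divided by the root of F. Where every library of a group had 3 counts or fewer, a ratio of summed counts with an exact interval (counting error only, since the reads carry no molecular identifiers and may repeat a molecule) replaces the fitted change. Gene positions are from GENCODE 29 (GRCh38), and promoter windows from RefSeq matched 5 of the 9 markers.

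The 9 markers were named, and from each list up to 2 genes per line, those with the largest mean change among genes called in one direction with both guides at a group mean of at least 100 counts. Members and lists were chosen with earlier results of these data known. Alternatives were RLE factors, DESeq2 1.42.0, 2 other filters, a replicate block, only the compared libraries, and each library left out. A joint model with unlisted genes as 0 counts was chosen after seeing the data. The fits were tested on simulated data.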

Additional observations from a re-analysis of the deposited data

Results flagged for a closer look

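For 3 results the mean change over both RIPK2 guides differed between cell lines in a direct test (edgeR quasi-likelihood test, joint model of 27 libraries). The spread between guides is not in these p-values, and the first guide differed between lines, so line and guide cannot be told apart. In DU145 the log2 change of SYP was -1.92 with gRNA 2 and -0.41, not called, with gRNA 10. The mean change of SYP was lower in DU145 than in 22Rv1 by -0.97 (adjusted p = 1.88e-05) and lower in PC3 than in 22Rv1 by -0.70 (adjusted p = 0.00133), with SYP below every control in all 6 libraries of both DU145 knockouts and in all 6 of both PC3 knockouts, but above every control in the 3 22Rv1 libraries with gRNA 10. The mean change of SOX2 was higher in DU145 than in 22Rv1 by 3.24 (adjusted p = 0.00456), a fitted value that depends on the prior count, since the DU145 controls had 1 count each.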

How the results depend on the processing

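Counts of markers called stayed within 1.5 times of the reported count in 297 of 333 alternatives, and changes of single genes kept direction and side of the threshold in 2088 of 2177, with 50 losing the call, 34 gaining it and 5 changing sign. With at least 10 counts in every library, which removes markers near 0, the markers called were 0 for DU145 gRNA 10, 3 for gRNA 1 against gRNA 10 in 22Rv1, 2 for gRNA 2 against gRNA 10 in DU145, 2 for control DU145 and 2 for control PC3 against control 22Rv1, and 1 for the DU145 against 22Rv1 knockout effect. With only the compared libraries, they were 2 for DU145 gRNA 2, 5 for DU145 gRNA 10, 2 for PC3 gRNA 10 and 2 between PC3 guides. With no filter they were 2 for each PC3 guide against control and 5 between PC3 guides, and with DESeq2 2 for PC3 gRNA 10, 2 between PC3 guides and 1 for the knockout effect of PC3 against DU145. Leaving out 1 library gave 0 to 1 for PC3 gRNA 2, 1 to 2 for PC3 gRNA 10, 1 to 2 between PC3 guides, 1 to 3 for the knockout effect of PC3 against 22Rv1 and 0 to 1 for that of PC3 against DU145. Signs turned when 1 library was left out for REST with gRNA 2 in PC3 (-0.0383 to 0.0834; negative without control replicate 1 and without gRNA 2 replicate 1 or 2, at -0.0383, -0.0129 and -0.0251), for SOX2 between control PC3 and control DU145 (-0.683 to 0.173; positive without PC3 control replicate 1), and for the REST knockout effect of DU145 minus 22Rv1 (-0.0476 to 0.117; negative without 22Rv1 control replicate 2). Libraries of different groups with the same number in their titles correlated by -0.19 to 0.34 in their deviations from group means. Those with different numbers correlated by -0.33 to 0.23. In some groups the number in the title differs from that in the library name, and the replicate block used the titles. With 3 libraries per group the correlations do not settle whether the numbers pair the samples. With the replicate block the markers called were 2 for PC3 gRNA 10 and 2 between PC3 guides. REST with gRNA 10 in DU145 lost its call in that fit (edgeR quasi-likelihood test, adjusted p = 0.0856). Over all genes, calls with only the compared libraries went from 5072 to 3335 for DU145 gRNA 2 (3259 and 3329 without control replicate 1 and 3) and from 5956 to 9749 for DU145 gRNA 10. Of the counts of listed genes, 33 of 360 moved by over 1.5 times. The cause was not tested for the other changes. INSM1, SCG2 outside 22Rv1, UCHL1 outside DU145 and SOX2 in PC3 had too few counts for a test within the line.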
